A study of Bos taurus with 11 samples.

Results

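The genes described here are those of cyclic AMP (cAMP) signaling, chosen by symbol: adenylyl cyclases (ADCY), phosphodiesterases (PDE), subunits of protein kinase A (PRKAC, PRKAR), A-kinase anchoring proteins (AKAP), Rap exchange factors (RAPGEF), factors of the CREB type (CREB1, CREB3, CREB5, CREB3L, CREM) and receptors of the ADORA, PTGER, GIPR, GCGR, GLP1R, VIPR and ADRB families. The symbols matched 85 of the 25197 gene symbols in the interval table, namely 16 receptors, 9 cyclases, 6 kinase subunits, 15 anchoring proteins, 25 phosphodiesterases, 6 exchange factors and 8 CREB-type factors. A gene start could be placed for 84 of them, among 23869 starts in all. CREB1 was the exception, since a single interval named it (H3K27ac in control, average signal 17.6, downstream of the gene on chromosome 2).

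The cells were rumen epithelial primary cells (REPC) of cattle, cultured from 1 Holstein bull calf of 2 weeks that had been fed milk replacer only. They were grown without butyrate (control) or with 5 mM butyrate for 24 h, and all libraries came from cells of that calf. Butyrate is a short-chain fatty acid of rumen fermentation and an inhibitor of histone deacetylases. ChIP-seq was run for H3K27ac (active promoters and enhancers), H3K4me3 (promoters), H3K4me1 (enhancers), H3K27me3 (the mark of Polycomb repression) and CTCF (a protein of chromatin boundaries), with 1 library per target and condition and 1 input library shared as background. No library had a replicate, so that no difference below has a replicate check and none was tested. The 10 ChIP libraries held 371758 called intervals, and values are the average signal (tag density) of an interval, in libraries whose scaling to each other is not stated.

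In cAMP signaling, a ligand binds a receptor coupled to a stimulatory or an inhibitory G protein, which turns adenylyl cyclase on or off. cAMP then activates protein kinase A (PKA), held in place by anchoring proteins, and the exchange factors RAPGEF3 and RAPGEF4, and phosphodiesterases break it down. PKA phosphorylates CREB and CREM, which act on target genes in the nucleus. In the rumen wall cAMP is known as a regulator of epithelial ion transport.

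Promoters were windows reaching 2 kb up and down from the gene start, and a promoter carried a mark where a called interval of that library reached it. Positions are those of the cattle assembly UMD3.1 as deposited. The table gave 1 start per gene, so other promoters of the same gene counted as gene body. Signal was deposited for called intervals only, and "not called" means below the peak caller's threshold, not absent. In bulk chromatin, fewer cells with a mark and less of the mark per cell cannot be told apart, nor can 2 marks on the same or on different chromosomes. Of the 84 promoters, 14 shared an interval with another gene's start and so shared its value, and 8 had another start within 2 kb.

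Of 15 epithelial marker genes, 8 carried H3K4me3 at the start in control and 13 after butyrate (56.8% and 61.9% of all gene starts). KRT5, DSP, SFN, ITGA6 and ITGB4, which include a basal keratin and genes of cell attachment, carried H3K4me3 and H3K27ac in both libraries. The keratins KRT14 (31.6), KRT15 (31.7) and KRT17 (25.6) had no H3K4me3 call in control and had one after butyrate. So had DSG3 (19) and GRHL2 (54.6). CDH1 (E-cadherin) and TP63 carried no H3K4me3 at the start in either library. GRHL2, EPCAM, PKP1 and ESRP1 carried H3K27me3 in both libraries, so that the epithelial label was borne out in part. Of 8 fibroblast markers, 6 carried H3K4me3 in control and 4 after butyrate, and of 4 smooth muscle markers, 2 and 4 did. COL1A1, COL1A2, ACTA2 and CNN1 carried H3K4me3 with H3K27ac in control. H3K4me3 was called at 1 of 4 endothelial and 1 of 4 immune markers in each library (KDR and CD14). PECAM1, CDH5, TEK, PTPRC, CD3E and CD68 had none in either library. H3K27ac was called at PECAM1 after butyrate only (28.4), at CD68 in both libraries (23.8 and 23.9) and at CD14 in control only (24.5). The part of other cell types in the results below was not tested.

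Many cAMP genes sat in Polycomb chromatin in untreated cells, and every H3K4me3 call made after butyrate only was at such a promoter. In control, 27 of the 84 promoters carried H3K4me3 without H3K27me3, 25 carried both marks, 15 carried H3K27me3 alone and 17 carried neither. After butyrate the counts were 39, 22, 7 and 16, in the same order. H3K27me3 was called in control at 40 of 84 promoters, where 33.1% of all gene starts carried it, and after butyrate at 29 of 84 against 29.3% of all. H3K4me3 was called at 52 of 84 in control against 56.8% of all and at 61 of 84 after butyrate against 61.9% of all.

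H3K4me3 was called after butyrate only at 9 of the 32 promoters that lacked it in control. Among all gene starts without H3K4me3 in control, 12.4% carried it after butyrate. All 9 cAMP genes were among the 15 whose promoter held H3K27me3 and no H3K4me3 in control, a class of which 22.9% carried H3K4me3 after butyrate over all genes. None of the 17 cAMP promoters with neither mark did so, against 4.25% of all such promoters. H3K4me3 was called in control only at 0 of the 52 cAMP promoters that had it there, against 0.413% of all. The 9 genes were ADORA1, ADORA2A, GCGR, GIPR, PTGER3, PRKAR1B, CREB3L3, PDE1C and PDE4C. They had H3K27me3 signals in control of 9.05 to 48.2, with a median of 20.4, and the 6 genes of the class without H3K4me3 after butyrate (ADCY8, ADORA3, AKAP12, GLP1R, PDE6B and RAPGEF3) had 8.05 to 27.5, with a median of 13.1. The ranges overlapped, so that the control signal did not separate the 9 genes from the 6. The H3K4me3 signals of the 9 after butyrate had a median of 32.4, beside 38.4 over all promoters of the class that carried it then. All 9 lay below the median promoter signal of that library, 85.5.

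**Figure D1:**
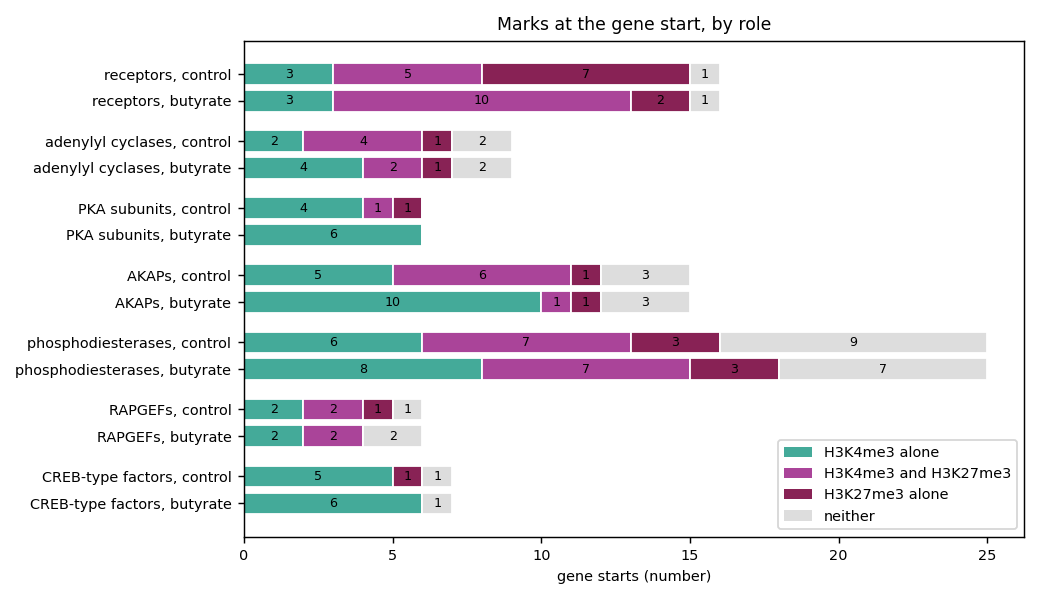
Number of gene starts (x axis) by the marks called within 2 kb of the start, for each role of the 84 genes in the control and the butyrate library (rows). Receptors have 7 starts with H3K27me3 alone in control and 2 after butyrate and 5 and 10 with both marks, and AKAPs have 6 and 1 with both marks and 5 and 10 with H3K4me3 alone.

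The receptors supplied 5 of the 9 genes. Of 16 receptor starts, 12 carried H3K27me3 in control and the same 12 carried it after butyrate, beside 33.1% and 29.3% of all gene starts. Of the 7 without H3K4me3 in control among them, 5 carried both marks after butyrate, beside 21.4% of all starts with H3K27me3 alone in control.

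ADORA2A encodes the high-affinity adenosine receptor that stimulates adenylyl cyclase, and starts on chromosome 17 at 73590613. Its H3K4me3 was not called in control and was 63.5 after butyrate. Its H3K27me3 signal was 30.0 in control and 15.2 after butyrate (log2 ratio -0.99), and 3 further H3K4me3 intervals of 26.7 to 40.1 lay 6.52 to 7.61 kb inside the gene after butyrate only. The promoter carried the activating mark in the butyrate library only and the repressive one in both.

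ADORA1, the adenosine receptor coupled to inhibitory G proteins, showed a smaller signal. Its H3K4me3 was 25.7 after butyrate only, with H3K27me3 of 11.1 in control and 9.20 after butyrate. ADORA3, also coupled to inhibitory G proteins, kept H3K27me3 alone (8.63 in control and 8.01 after butyrate). ADORA2B, the low-affinity stimulatory receptor, was the adenosine receptor with an active promoter in both libraries. It carried H3K4me3 of 153 in control and 129.6 after butyrate, with H3K27ac of 49.0 and 43.2 and no H3K27me3.

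Among the receptors of prostaglandin E2, PTGER3 had the highest H3K27me3 signal of all 84 promoters in both libraries. The gene encodes the inhibitory EP3 receptor and starts on chromosome 3 at 74488072. Its H3K27me3 signal was 48.2 in control and 21.9 after butyrate (log2 ratio -1.14), and its H3K4me3 was 58.5 after butyrate only. PTGER2, the stimulatory EP2 receptor, carried both marks in both libraries. Its H3K4me3 was 67.2 in control and 98.1 after butyrate, while its H3K27me3 was 15.8 and 7.51. PTGER4, the stimulatory EP4 receptor, had the highest H3K4me3 signal of the 84 promoters in control at 177, and 153 after butyrate. Its H3K27ac was 32.1 in control and 34.1 after butyrate. PTGER1, which signals through calcium, carried no H3K4me3, and its H3K27ac of 23.7 after butyrate was the one H3K27ac promoter of the 84 that was called after butyrate only.

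The receptors of the gut and pancreatic hormones lay in Polycomb chromatin. GIPR, the receptor of the incretin GIP, starts on chromosome 18 at 53666683 and showed the lowest log2 ratio of H3K27me3 among the 27 promoters marked in both libraries. Its signal was 32.7 in control and 11.6 after butyrate (log2 ratio -1.50), with H3K4me3 of 32.4 after butyrate only. A further H3K4me3 interval of 40.2 lay 3.43 kb inside GIPR after butyrate only, and with a window of 1 kb no H3K4me3 was called at its start. GCGR, the glucagon receptor, had H3K27me3 of 20.4 in control and 11.8 after butyrate and H3K4me3 of 55.0 after butyrate only. GLP1R, the receptor of GLP-1, kept H3K27me3 alone with near equal signals of 13.8 and 13.4.

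As deposited, H3K27me3 signals were lower after butyrate at promoters in general, with a median log2 ratio of -0.35 over the 27 cAMP promoters marked in both libraries and of -0.35 over all such promoters. Set against the median promoter the cAMP promoters lay at 0.000928, so that their direction rests on the scaling between libraries. A signal at least 2-fold lower was seen at 4 of the 27 (GIPR, PDE3A, PTGER3 and PTGER2) against 11.7% of all as deposited, and at 1 of the 27 (GIPR) against 3.26% of all relative to the median promoter.

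VIPR1 and VIPR2, receptors of vasoactive intestinal peptide, carried both marks in both libraries. VIPR1 had H3K4me3 of 23.1 in control and 57.9 after butyrate (log2 ratio 1.32). VIPR2 had 57.3 and 79.6, and its H3K27ac of 23.2 and 24.7 made it the one receptor with H3K27ac beside H3K27me3.

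ADRB3 and ADRB1 encode beta-adrenergic receptors, which respond to catecholamines through stimulatory G proteins. For ADRB3 the H3K4me3 was 53.6 in control and 142 after butyrate (log2 ratio 1.41). Its H3K27me3 was 14.3 and 15.2 by average signal, but 150 in control and 48 after butyrate by the peak signal of ADRB3, so that the direction turned with the measure. ADRB1 carried both marks, with H3K4me3 of 81.0 and 91.4.

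**Figure D2:**
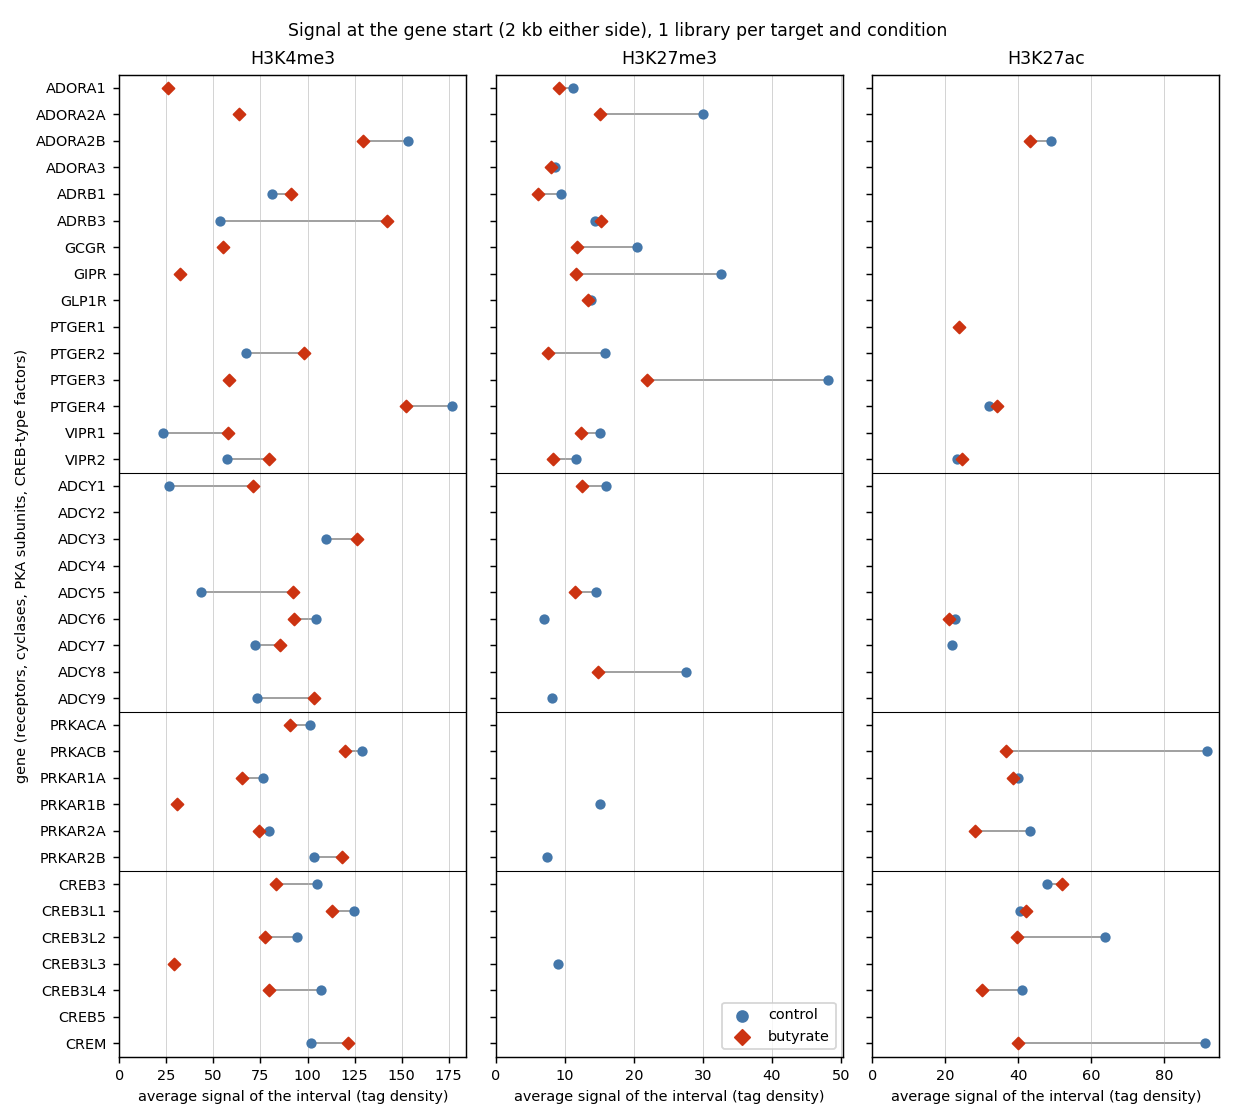
Average signal (x axes, tag density) of H3K4me3, H3K27me3 and H3K27ac within 2 kb of the start of receptors, cyclases, PKA subunits and CREB-type factors (rows), with control as circles and butyrate as diamonds. A lone symbol is a promoter called in 1 library, as for H3K4me3 at ADORA1, ADORA2A, GCGR, GIPR, PTGER3, PRKAR1B and CREB3L3, and an empty row is a promoter called in neither.

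The cyclases make cAMP. ADCY3 and ADCY7 carried H3K4me3 without H3K27me3 in both libraries. ADCY3, the cyclase known from olfactory neurons, had H3K4me3 of 109.7 in control and 126.3 after butyrate. ADCY7 had H3K4me3 of 72.0 and 85.3, and its H3K27ac of 21.9 was called in control only.

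ADCY1, ADCY5, ADCY6 and ADCY9 carried both marks in control. ADCY1, the calcium-stimulated cyclase of neurons (chromosome 4, start 76969459), had H3K4me3 of 26.7 in control and 71.0 after butyrate, a log2 ratio of 1.41 that was the highest of the 52 shared promoters, followed closely by ADRB3. ADCY5, a cyclase of striatum and heart that calcium inhibits, had H3K4me3 of 43.3 and 92.5 (log2 ratio 1.09). Both kept H3K27me3, at 15.9 and 12.4 for ADCY1 and at 14.5 and 11.4 for ADCY5. ADCY6 and ADCY9 had lower H3K27me3 in control, 6.93 and 8.15, and neither carried it after butyrate.

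ADCY8, another calcium-stimulated cyclase, kept H3K27me3 alone, and its signal was 27.5 in control and 14.9 after butyrate. ADCY2 and ADCY4 carried neither mark at the annotated start. An H3K4me3 interval with a CpG island lay 2.82 kb inside ADCY4 in control (26.0) and at 2.77 kb after butyrate (34.0), beyond the window.

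In untreated cells 5 of the 6 PKA subunit starts carried H3K4me3, beside 56.8% of all gene starts, and 3 carried H3K27ac, beside 47.3%. PRKACA and PRKACB, the catalytic subunits, and PRKAR1A and PRKAR2A, ubiquitous regulatory subunits, carried H3K4me3 without H3K27me3 in both libraries. PRKACB had H3K4me3 of 129 in control and 119.7 after butyrate, and H3K27ac of 91.7 and 36.6. PRKAR1A had H3K27ac of 39.9 and 38.5, PRKAR2A of 43.2 and 28.3, and no H3K27ac interval reached the start of PRKACA in either library. The regulatory subunits with a more tissue-limited expression, PRKAR1B and PRKAR2B, carried H3K27me3 in control and not after butyrate. PRKAR1B had H3K27me3 of 15.1 in control and H3K4me3 of 30.8 after butyrate, with no CpG island in the interval, so that all 6 subunits carried H3K4me3 without H3K27me3 after butyrate. PRKAR1B also held 1 H3K4me3 interval in its body in control and 6 after butyrate. All of them overlapped a broad H3K27me3 interval inside PRKAR1B, 58.8 kb long with a signal of 24.2 in control and 57.2 kb long with 13.97 after butyrate, so that Polycomb marking was still called in the gene.

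AKAPs tether PKA to membranes and organelles. Of 15 starts, 11 carried H3K4me3, and the same 11 did so in both libraries, beside 56.8% and 61.9% of all gene starts. Of these, 6 also carried H3K27me3 in control, and 5 of the 6 did not after butyrate, against 32.4% of all such promoters. The 5 were AKAP1, AKAP2, AKAP5, AKAP9 and AKAP10, with control signals of 7.53, 7.79, 11.1, 4.58 and 9.19. AKAP7 was the exception, with H3K27me3 of 8.34 in control and 6.53 after butyrate. AKAP1 anchors PKA to mitochondria, AKAP5 to the plasma membrane and AKAP9 to the centrosome and Golgi. Their H3K4me3 signals differed little, at 105 and 110.2 for AKAP1, 64.9 and 72.3 for AKAP5 and 89.3 and 82.7 for AKAP9.

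H3K27me3 was called in control only at 13 of the 40 marked cAMP promoters, where 20.6% of all promoters with H3K27me3 in control had no call after butyrate. Of the 13, 10 carried both marks in control, which makes 10 of 25 in that class against 32.4% of all promoters in it. Where only intervals with their summit in the window counted, it was 4 of 17 against 40.2% of all, so that the cAMP promoters lay above all promoters of the class by one count and below them by the other. Their control signals of 4.58 to 11.1 lay low in the range, and the 15 that kept the call had 7.49 to 16.6. H3K27me3 was called after butyrate only at 2 of 44 promoters, PDE10A (6.23) and PDE6H (6.08), against 4.61% of all.

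Among the RAPGEFs, which activate Rap proteins, RAPGEF3 and RAPGEF4 (EPAC1 and EPAC2) bind cAMP directly. RAPGEF4 carried both marks, with H3K4me3 of 23.0 in control and 50.0 after butyrate (log2 ratio 1.12) and H3K27me3 of 10.7 and 6.56. RAPGEF3 carried H3K27me3 of 14.1 at its annotated start in control and neither mark there after butyrate. The control interval was 32399 bp long, and after butyrate 2 intervals of 7599 and 7799 bp lay inside RAPGEF3 without reaching the start. Its strongest H3K4me3 interval lay inside the gene, with its summit 7.96 kb from the start in control and 9.24 kb after butyrate. That interval held a CpG island, had H3K4me3 of 68.9 in control and 139.9 after butyrate, and overlapped H3K27me3 of 14.1 and 10.5. RAPGEF5 had H3K4me3 of 42.4 and 101.2 (log2 ratio 1.26) at a promoter with both marks. RAPGEF1 and RAPGEF6 carried H3K4me3 without H3K27me3 in both libraries.

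Of 7 starts of CREB-type factors, 1 carried H3K27me3 in control and 0 after butyrate, beside 33.1% and 29.3% of all gene starts. H3K4me3 was at 5 and 6 of the 7, beside 56.8% and 61.9% of all, and H3K27ac at 5 in each library, beside 47.3% and 34.9%. CREB3, CREB3L1, CREB3L2, CREB3L4 and CREM carried H3K4me3 and H3K27ac in both libraries and no H3K27me3. CREM, the cAMP-responsive modulator whose internal promoter makes the repressor ICER, had H3K4me3 of 102 in control and 121 after butyrate at its start. A second strong H3K4me3 interval with a CpG island lay 55.5 kb inside CREM in control, with signals of 91.3 and 86.9, and H3K27ac at the start was 91.3 in control and 40.0 after butyrate. CREB3L3, a factor of liver and small intestine, had H3K27me3 of 9.05 in control only and H3K4me3 of 29.0 after butyrate only, with no CpG island. An H3K27me3 interval of 7.49 was still called inside CREB3L3 after butyrate. CREB5 carried neither mark at its annotated start.

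Of the 25 phosphodiesterases, which end the cAMP or cGMP signal, 13 carried H3K4me3 in control and 15 after butyrate (56.8% and 61.9% of all). PDE4C, a cAMP-specific enzyme that starts on chromosome 7 at 4927693, had the highest H3K4me3 of the 9 promoters called after butyrate only. Its H3K4me3 was 76.5 and its H3K27me3 was 21.5 in control and 11.3 after butyrate. PDE1C, a calmodulin-dependent enzyme, had H3K4me3 of 26.8 after butyrate only and 2 further H3K4me3 intervals with CpG islands inside the gene after butyrate only (39.4 at 193 kb and 36.2 at 206 kb).

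PDE3A and PDE3B, cAMP enzymes that cGMP inhibits, carried both marks in control. PDE3A had H3K27me3 of 13.8 and 5.58 (log2 ratio -1.31) with nearly level H3K4me3 of 96.6 and 105. PDE3B had the highest H3K4me3 of the 84 promoters after butyrate at 187 (164 in control), and its H3K27me3 was called in control only (8.28). PDE2A, which cGMP stimulates, the cGMP-specific PDE9A, the dual-specific PDE11A and the calmodulin-dependent PDE1B carried both marks in both libraries, with H3K4me3 log2 ratios of 0.84, 0.96, 0.95 and 0.87. PDE4A, PDE4B, PDE4D, PDE5A, PDE8B, PDE1A and PDE6C carried neither mark at the annotated start in either library. PDE12 and PDE6D, which share the family name but do not cleave cyclic nucleotides, carried H3K4me3 without H3K27me3.

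H3K4me3 was at least 2-fold higher after butyrate at 6 of 52 promoters marked in both libraries, where 3.94% of all such promoters were. The 6 were ADCY1, ADRB3, VIPR1, RAPGEF5, RAPGEF4 and ADCY5, and all 6 carried both marks in control (6 of 25, against 14.3% of all promoters with both marks). None of the 27 cAMP promoters with H3K4me3 alone in control reached 2-fold, against 0.504% of all in that class. The median log2 ratio was 0.47 over the 25 promoters with both marks (0.33 over all such promoters) and -0.14 over the 27 with H3K4me3 alone (-0.07 over all). Over all 52 it was 0.12, beside -0.01 over all gene starts marked in both libraries. The cAMP promoters were thus close to all genes within each class, above them in the class with both marks and below them in the other.

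H3K27ac at the cAMP promoters was lower after butyrate as deposited, as it was at promoters in general. It was called at 33 of 84 in control (47.3% of all gene starts) and at 29 after butyrate (34.9% of all). It was called in control only at 5 of 33 promoters, where 30.4% of all promoters with H3K27ac in control lacked it after butyrate, and after butyrate only at 1 of 51, against 3.64% of all. The 5 were AKAP7 (26.4), AKAP14 (17.7), ADCY7 (21.9), PDE6D (26.9) and PDE7B (19.7), all below the median promoter signal of that library, 46.6. With equal numbers of intervals taken from both libraries, 8 were called in control only.

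The median log2 ratio of H3K27ac was -0.51 over the 28 cAMP promoters with a call in each library, and over all such promoters it was -0.78. Set against the median promoter, the cAMP promoters lay 0.26 higher, so that the sign depends on the scaling between libraries. AKAP8L, a nuclear anchoring protein, had the lowest ratio, with 68.3 in control and 19.6 after butyrate (log2 ratio -1.80). PRKACB (-1.32), AKAP8 (-1.38), PDE12 (-1.64), CREM (-1.19), AKAP9 (-1.19), RAPGEF6 (-1.16), AKAP10 (-1.07) and PDE6A (-1.03) were also at least 2-fold lower as deposited, 9 of 28 in all, against 33.7% of all. Relative to the median promoter AKAP8L alone was, 1 of 28 against 1.61% of all. Another start, LOC104972793, lies within 2 kb of that of AKAP8L. The body of AKAP8L held 0 H3K27ac intervals in control and 6 (4.99 kb) after butyrate. CREB3, a factor of the endoplasmic reticulum membrane, had the highest ratio, with 47.9 in control and 52.0 after butyrate (log2 ratio 0.12) by average signal. By peak signal CREB3 had 169 and 81, so that its direction turned with the measure, and it shares that interval with TLN1. H3K27ac was called in neither library at the 15 promoters that held H3K27me3 without H3K4me3 in control, the 9 with H3K4me3 after butyrate included. It was rare in this class over all genes, at 34 of 4506 starts in control and 21 after butyrate.

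**Figure D3:**
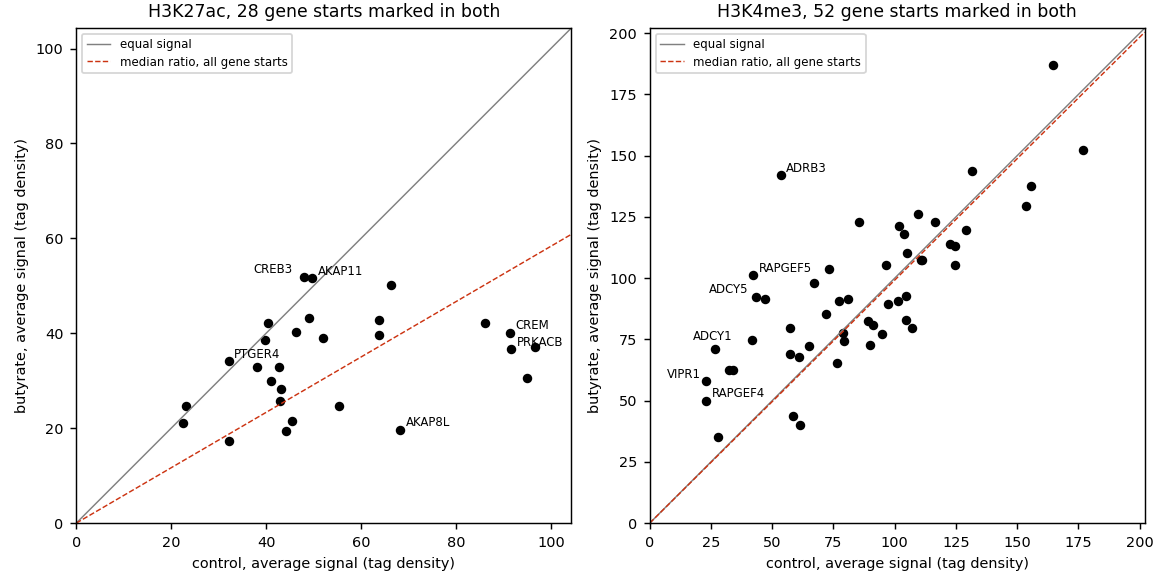
Average signal after butyrate (y axis) against control (x axis), both as tag density, for the promoters marked in both libraries, 28 for H3K27ac and 52 for H3K4me3. The grey line marks equal signal and the dashed line the median ratio of all gene starts. Most H3K27ac points lie below the grey line, and ADRB3, RAPGEF5, ADCY5, ADCY1, VIPR1 and RAPGEF4 stand above it for H3K4me3.

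H3K4me1 was called at 29 of 84 promoters in control (30.8% of all) and at 20 after butyrate (18.2% of all). It was in control only at 15 of 29, against 55.8% of all, and after butyrate only at 6 of 55, against 6.67% of all. The 6 were ADCY8, ADCY9, ADORA2A, PRKAR1B, PDE1B and PDE4A. The median log2 ratio at the 14 shared promoters was 0.06, beside -0.13 over all, and ADRB3 was the one at least 2-fold lower, with 75.1 in control and 36.2 after butyrate (1 of 14, against 0.956% of all).

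CTCF was called at 19 promoters in control (24.7% of all) and at 25 after butyrate (26.8% of all). It was called in control only at RAPGEF6, 1 of 19 against 12.6% of all. It was called after butyrate only at 7 of 65, against 6.93% of all. The 7 were ADCY5, ADORA2A, PTGER2, PRKAR2B, PDE3A, PDE3B and RAPGEF1, with signals of 21.7 to 33.8, all below the median promoter signal of that library (38.0). All of the 7 but RAPGEF1 carried H3K27me3 in control, as did 45.9% of all 1247 starts with CTCF after butyrate only. The median log2 ratio at the 18 shared promoters was 0.17, beside 0.03 over all.

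The bodies of the cAMP genes held 139 H3K27ac intervals in control and 241 after butyrate outside the promoter windows, a ratio of 1.73 beside 1.87 over all genes. With equal numbers of intervals taken from both libraries the counts were 139 and 182, so that part of the difference rests on the larger number called after butyrate. Of the 241, 146 overlapped no control interval (60.6%, beside 64.5% over all genes). The median interval length was 538 bp in control and 389 bp after butyrate, and the covered length was 139.8 kb and 146 kb. The counts thus differed far more than the covered length. Over all genes the covered length was 16927.5 kb in control and 21194 kb after butyrate. Of the 37 genes with any such interval, 20 had more after butyrate (58.4% of all genes did) and 12 had fewer (30.8% of all).

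The roles differed. The AKAPs held 17 intervals over 16.9 kb in control and 61 over 38.6 kb after butyrate, and the cyclases 6 over 7.51 kb and 22 over 14.2 kb. AKAP1, AKAP2 and AKAP8 held 16, 17 and 11 of the 61. ADCY7 held 3 in control and 15 after butyrate and ADCY6 held 0 and 5, while ADCY2 and ADCY5 each held 1 and 0. The phosphodiesterases held 32 intervals and 27.6 kb in control and 30 intervals and 13.9 kb after butyrate. The receptors held 16 intervals (8.30 kb) and 15 (7.89 kb).

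RAPGEF1, an exchange factor that cAMP does not bind, showed the largest difference in count. It held 5 H3K27ac intervals (12.7 kb) in control and 29 (16.1 kb) after butyrate, of which 19 overlapped none in control, and 23 H3K4me1 intervals in control and 39 after butyrate. AKAP1 held 3 (5.07 kb) and 16 (13.2 kb), ADCY7 held 3 (5.48 kb) and 15 (11.2 kb), and AKAP2 held 7 (3.69 kb) and 17 (8.97 kb). AKAP8, a nuclear anchoring protein, held 2 (0.902 kb) and 11 (7.16 kb), and PDE8A, a cAMP-specific enzyme, held 3 (1.16 kb) and 12 (5.61 kb). In these 6 genes both the count and the covered length were higher after butyrate. CREB3L2 had the most H3K27ac intervals of the 85 genes in both libraries, 25 in control and 42 after butyrate, but its covered length was 25.7 kb in control and 22.1 kb after butyrate, and its H3K4me1 intervals numbered 33 and 18.

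Other genes had fewer body intervals of both H3K27ac and H3K4me1 after butyrate. CREB5 held 11 H3K27ac intervals (8.40 kb) in control and 4 (2.34 kb) after butyrate, and 13 (6.16 kb) and 4 (1.01 kb) of H3K4me1. PDE4D held 12 (8.56 kb) and 6 (1.95 kb) of H3K27ac and 13 (4.13 kb) and 4 (1.34 kb) of H3K4me1. RAPGEF2 held 11 (9.52 kb) and 6 (2.76 kb) of H3K27ac and 11 (6.61 kb) and 1 (0.268 kb) of H3K4me1. PDE4B, which with PDE4D belongs to the cAMP-specific PDE4 family, held 7 (9.13 kb) and 3 (1.29 kb) of H3K27ac and 8 (5.25 kb) and 6 (2.40 kb) of H3K4me1. These 4 genes also carried neither H3K4me3 nor H3K27me3 at the annotated start. Over all 85 genes, H3K4me1 intervals in bodies numbered 249 (179 kb) in control and 247 (151 kb) after butyrate, and CTCF intervals 103 (43.7 kb) and 125 (69.3 kb). Over the bodies of all genes in the table, H3K4me1 intervals numbered 29988 (22418 kb) and 27836 (17293 kb), and CTCF intervals 12635 (6209 kb) and 14255 (8674 kb).

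**Figure D4:**
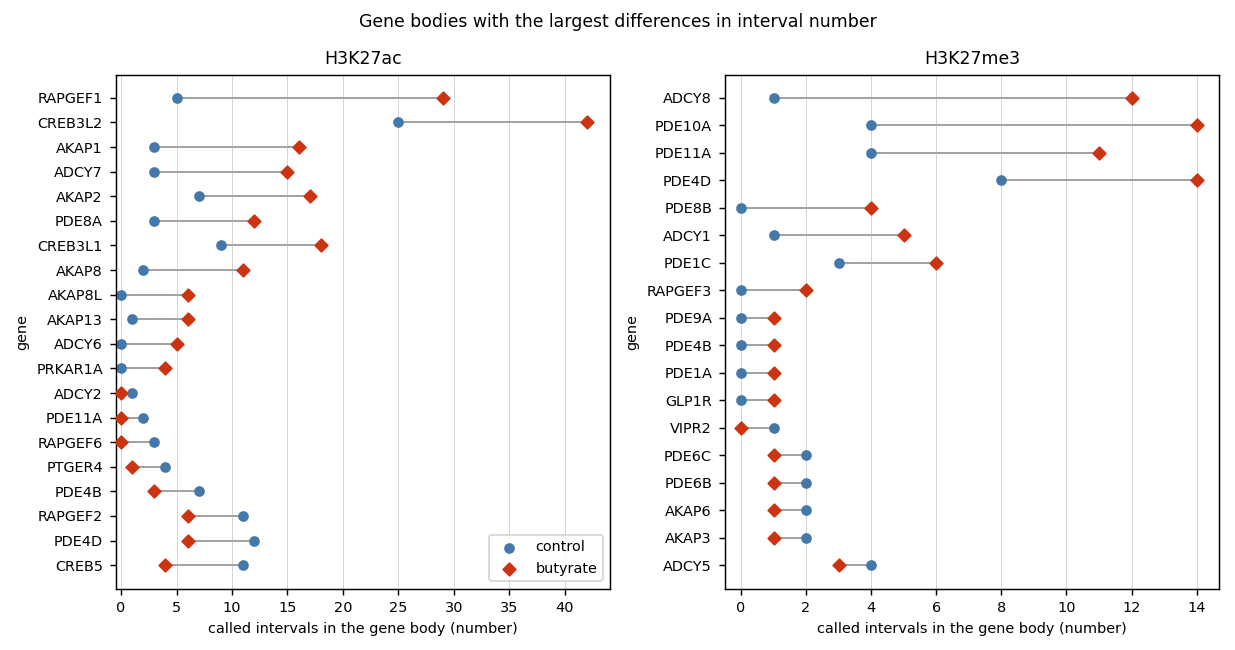
Number of called intervals in the gene body outside the promoter window (x axis) in control (circles) and after butyrate (diamonds), for the genes with the largest differences in either direction (rows). For H3K27ac RAPGEF1 has 5 and 29 intervals and CREB5 11 and 4, and for H3K27me3 ADCY8 has 1 and 12.

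H3K27me3 was called at fewer starts after butyrate, while body intervals outside the promoter windows covered more. An interval reaching a window was left out of the body, so one that no longer reached the start could be counted there instead. The bodies held 55 intervals (575 kb) in control and 103 (904 kb) after butyrate, a ratio of 1.87 beside 1.30 over all genes. Over all genes the covered length was 71109 kb in control and 96635 kb after butyrate. With intervals that reached a window kept, the counts were 82 and 122. With equal numbers of intervals taken from both libraries they were 55 and 80. Of the 103, 57 overlapped none in control (55.3%, beside 35.8% over all genes), and 15 of 27 genes with any had more after butyrate, against 45.1% of all. ADCY8, PDE10A, PDE11A and PDE4D had the largest differences in count. ADCY8 held 1 interval (25.6 kb) in control and 12 (102 kb) after butyrate, at average signals of 4.96 to 8.37, while the signal at its start was lower after butyrate. PDE10A, an enzyme of striatal neurons, held 4 (44.6 kb) and 14 (105 kb), PDE11A held 4 (32.8 kb) and 11 (84.4 kb), and PDE4D held 8 (33.6 kb) and 14 (63.4 kb). ADCY1 held 1 (6.00 kb) and 5 (51.4 kb), and PDE8B held 0 and 4 (25.4 kb). RAPGEF4 had 14 intervals in both libraries (115 and 96.6 kb), and the AKAPs had 5 (32.4 kb) and 4 (22.2 kb), so the difference was not shared by all roles. Over the bodies of the 85 genes the median interval signal was 6.55 in both libraries.

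H3K4me3 in the bodies numbered 42 intervals (30.2 kb) in control and 62 (44.5 kb) after butyrate (1.48 times, beside 1.38 over all genes). With equal numbers of intervals taken from both libraries the counts were 42 and 43, so that the difference rests on the larger number called after butyrate. As reported, 32 of the 62 overlapped none in control (51.6%, beside 45.9% over all). Some genes whose annotated start was bare had strong internal H3K4me3. PDE4D, which is known for many alternative promoters, had intervals of 89.3 in control and 83.8 after butyrate at 764 kb from the start and of 90.7 in both libraries at 1520 kb, each with a CpG island. PDE4B had one of 64.6 and 44.05 at 405 kb, with H3K27ac of 44.7 in control and 21.7 after butyrate. CREB5 had one of 36.8 in control and 28.2 after butyrate at 224 kb. The state at the annotated start therefore leaves out the strongest H3K4me3 of these genes. PDE10A held 3 H3K4me3 intervals after butyrate only, with signals of 18.8 to 38.4 at 75.4 to 88.2 kb, each with a CpG island and each overlapping H3K27me3.

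**Figure D5:**
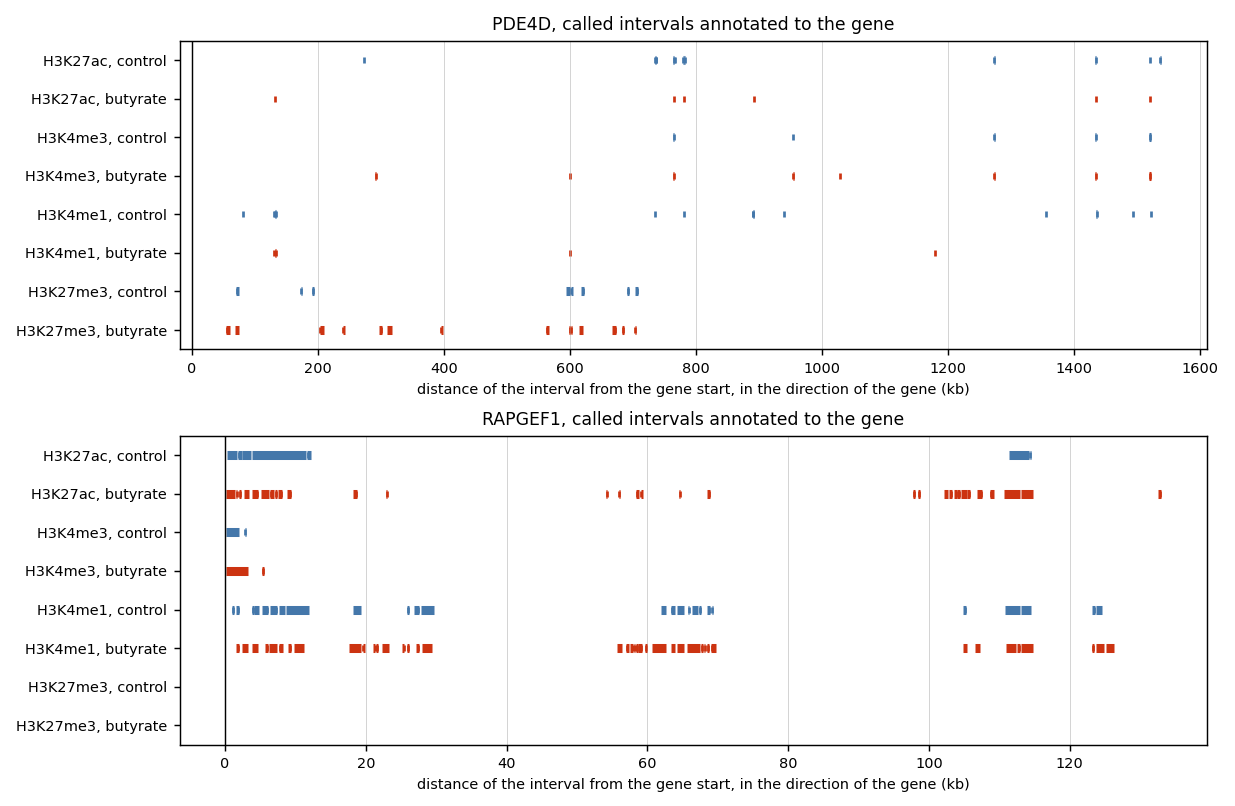
Called intervals of 4 marks in each library (rows) by distance from the gene start (x axis, kb, in the direction of the gene) for PDE4D and RAPGEF1. H3K4me3 of PDE4D lies far inside the gene in both libraries, H3K27me3 of PDE4D numbers 8 intervals in control and 14 after butyrate, and H3K27ac of RAPGEF1 numbers 5 and 29 outside the 2 kb window.

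Most H3K4me3 promoters of the family held a CpG island. The count of islands that comes with each interval was above 0 for 55 of the 61 cAMP promoters with H3K4me3 (90.2%), beside 90.9% over all gene starts. CREB3L2, CREB3L3 and PRKAR1B were among those without. Among promoters with H3K27me3 alone in control, H3K4me3 after butyrate was more frequent over all gene starts where the H3K27me3 interval held an island, at 38.9% of 2395 starts with an island and 4.83% of 2111 without. The cAMP genes numbered 7 of 11 with an island (ADORA1, ADORA2A, GCGR, GIPR, PTGER3, PDE1C and PDE4C) and 2 of 4 without (CREB3L3 and PRKAR1B). Islands were counted anywhere in the H3K27me3 interval, which can reach far into a gene, and ADCY8, AKAP12, PDE6B and RAPGEF3 had one there. Islands at a start were counted in H3K4me3 intervals only. These genes had no such interval at the start, so an island there could not be counted. The part of island content in the 9 of 15 was not tested.

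Published lists name genes whose mRNA differed after butyrate in cells of the same kind. Of the 84 genes, 11 stood on the list of higher mRNA, beside 3.34% of all gene starts, and 0 on that of lower mRNA, beside 1.19% of all. The lists were made on the same treatment and are not independent evidence. The 11 were ADORA1, ADORA2A, ADRB3, GIPR, CREB3L3, RAPGEF4, AKAP4, PDE2A, PDE4C, PDE6A and PDE9A. Of the 11, 9 carried H3K27me3 in control, beside 70.7% of all 798 starts on that list, and 5 of these (ADORA1, ADORA2A, GIPR, CREB3L3 and PDE4C) carried H3K4me3 after butyrate only, which 17.0% of the listed starts did. The 5 marked in both libraries had a median H3K4me3 log2 ratio of 0.96, from -0.25 at PDE6A to 1.41 at ADRB3, beside 0.65 over all 513 shared promoters on the list and 0.08 over the 47 of the other 73 genes. Of those 73 genes, 4 carried H3K4me3 after butyrate only. PDE6A was the one listed gene with H3K27ac at its start, and AKAP4, a sperm protein, carried none of the 5 targets there.

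Other genes of the pathway were read from a list of 53 further symbols, of which 48 had a start. H3K4me3 was called at 32 of the 48 in control and 38 after butyrate (56.8% and 61.9% of all), and H3K27me3 at 26 and 24 (33.1% and 29.3% of all). The 6 with H3K4me3 after butyrate only were GNAS (33.5), the gene of the stimulatory G protein, POPDC3 (87.2) and CNGA3 (52.0), which bind cyclic nucleotides, the histamine receptor HRH2 (57.0), the prostacyclin receptor PTGIR (30.6) and ADCYAP1 (55.8), which encodes the peptide PACAP. All 6 carried H3K27me3 and no H3K4me3 in control, a class of 13 in this list, and 22.9% of the class over all genes carried H3K4me3 after butyrate. H3K4me3 was at least 2-fold higher at 3 of 32 shared promoters, GNAL, HCN4 and PTH1R, against 3.94% of all.

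Of the 10 other receptor and ligand genes with a start, all carried H3K27me3 in both libraries (33.1% and 29.3% of all gene starts). None carried H3K27ac, beside 47.3% and 34.9% of all. FFAR2 and FFAR3, the receptors of short-chain fatty acids, kept H3K27me3 alone, at 7.96 in control and 8.33 after butyrate for FFAR2 and at 8.83 and 11.1 for FFAR3. The coactivators and factors carried H3K4me3 at all 10 starts in both libraries (56.8% and 61.9% of all). They carried H3K27me3 at 2 in control (CREBBP and CRTC3) and 1 after butyrate (CREBBP), beside 33.1% and 29.3% of all. H3K27ac was at 9 in control and 7 after butyrate, beside 47.3% and 34.9% of all. ATF1, a partner of CREB, had H3K27ac of 68.9 in control only, and so had CRTC3 (29.5), a coactivator of CREB. Of the 7 target genes of CREB in the list, H3K27ac was at 6 in control and 5 after butyrate (47.3% and 34.9% of all). The one without a call after butyrate was PER1 (72.7 in control), a clock gene, while SIK1, a kinase that restrains CREB coactivators, had 66.1 and 63.0.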

How the data were processed

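Primary rumen epithelial cells were profiled by ChIP-seq in 11 samples (10 ChIP libraries and 1 input), grouped by the sample labels. Per the submitters' processing notes, Trim Galore 0.4.1, BWA and MACS2 were used with UMD3.1; per the study's methods, uniquely aligned reads were kept and peaks were called per library against the input. The deposited signal of each interval is a tag density, as peak and as average over its bins; the scaling of libraries to each other is not given in the sources used here, and neither is the base (0 or 1) from which coordinates count. Other deposited columns hold interval lengths, bin counts and counts of CpG islands, promoters and genes. Read totals were not used, so no depth or counting precision is given.

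A start was placed from summit and distance where at least 2 listings of a symbol agreed in 90% of cases. A promoter took the highest average signal among intervals that reached 2 kb on either side. Log2 ratios, butyrate over control, used promoters marked in both libraries with no pseudocount. Body intervals were those annotated within a gene outside that window, and overlap meant at least 1 bp. With 1 library per target and condition no test was possible, and counts stand beside the share over all gene starts. Of 85 symbols, 84 matched the RefSeq gene table of another assembly, used for names only. No sequence is shown, as none was held in the sources used here.

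The members and lists were chosen with earlier results of these data known. All receptors, cyclases, PKA subunits and CREB-type factors could be named. A single item is counted in the totals and not reported here singly. The other genes were to be named when among the 4 highest or 4 lowest log2 ratios or the 4 highest mean signals of a target, when called in 1 library at or above its median promoter signal, among the 5 with the largest gain or loss of body intervals, or on the mRNA lists, with RAPGEF3 and RAPGEF4 always. Further AKAPs, phosphodiesterases and RAPGEFs in the text and the named genes of the pathway list were picked with their values in view. The start placement was tested on simulated data and recovered 300 of 300 starts. Alternatives were windows of 1 kb and 5 kb, intervals from the 25% quantile of the peak signal upward, equal numbers of intervals, summits in the window, peak signal, a pseudocount of 1, centring on the median promoter, scaling on the top 10% of promoters and promoter intervals kept with the bodies. Counts by control marking were recomputed under alternatives added after seeing the data. Python 3.11.15 with numpy 2.4.6, pandas 2.3.3, scipy 1.17.1 and matplotlib 3.10.9 was used.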

Additional observations from a re-analysis of the deposited data

How the results depend on the processing

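No paired analysis was possible because each target had 1 library per condition. Of the planned comparisons with an alternative, 98 stayed within 1.5 times (counts) or within the 95% interval of the median (log2 ratios), 13 moved further and 4 reversed, and of those added after seeing the data 19 of 20 stayed within these bounds. Within them, the median log2 ratio of H3K4me1 changed sign, from 0.06 to -0.07 with a window of 1 kb and -0.06 with 5 kb, and H3K4me3 body intervals after butyrate went from 62 to 43 with equal numbers of intervals (42 in control). The 95% interval reflects the spread between cAMP promoters in 1 library per condition. It served as a bound only and does not measure the uncertainty of a butyrate difference. The median log2 ratio of H3K27ac over the cAMP promoters was -0.51 and became -1.05 with peak signal, 0.26 when centred on the median promoter and 0.36 when scaled on the top 10% of promoters. That of H3K27me3 was -0.35 and became -0.91, 0.000928 and 0.64 under the same settings, so the direction of either mark rests on the scaling. With equal numbers of intervals, H3K27ac was in control only at 8 promoters (5 as reported), CTCF at 2 (1) and H3K27me3 after butyrate only at 1 (2). H3K27ac after butyrate only numbered 2 (1) with a window of 1 kb and 2 with summits in the window. With summits, H3K27me3 was in control only at 6 promoters (13), and promoters with both marks that lacked H3K27me3 after butyrate numbered 4 of 17 against 40.2% over all gene starts (10 of 25 against 32.4%). Above the 25% quantile of peak signal, H3K27me3 after butyrate only numbered 1 promoter, H3K27me3 body intervals in control 35 (55) and H3K4me3 body intervals in control 23 (42). With promoter windows kept, H3K4me3 body intervals numbered 91 in control and 127 after butyrate (42 and 62).

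The count of promoters that held H3K27me3 without H3K4me3 in control and carried H3K4me3 after butyrate was 8 of 15 with a window of 1 kb, 10 of 16 with 5 kb, 10 of 18 above the quantile, 9 of 15 with equal numbers and 7 of 10 with summits, beside 20.0% to 37.0% over all gene starts. Limits are 1 calf, 1 library per target and condition, 1 annotated start per gene, signal in called intervals only, and unknown depth and scaling.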
